A study of Mus musculus with 30 samples.

Results

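Clustered histone genes were taken as every gene whose symbol starts with Hist1h, Hist2h, Hist3h or Hist4h. The study's 3 expression tables together held 67 of them. The table of sorted stem and progenitor cells held 62 among 11740 genes, that of leukaemic bone marrow 10 among 11275, and that of cultured stromal cells 67 among 20619. By class, the 62 comprised 5 linker histone H1 genes, 17 H2a, 17 H2b, 11 H3 and 12 H4 genes. The 10 in marrow comprised 5 H1 genes, 1 H2a and 4 H2b, and those of the other classes were not analysed here in marrow.

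These genes encode the bulk of the histones laid on newly copied DNA, and most of their mRNAs are made mainly in S phase. Such an mRNA usually ends in a short stem-loop bound by the stem-loop binding protein (Slbp) instead of a poly(A) tail, and is degraded when DNA synthesis stops. Some clustered genes also give polyadenylated, spliced or read-through transcripts, which non-dividing and differentiating cells can hold. A library prepared by poly(A) selection, as the mRNA kit named in the protocols does, recovers tailed transcripts, so the levels below are those of the RNA that such a kit captures.

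The study modelled therapy-related myeloid neoplasm in C57BL/6 mice with bulk RNA sequencing. LSK cells, a marrow fraction rich in blood stem and progenitor cells, came in 4 groups of 3 libraries. Wild-type (WT) cells had no transplant, no short hairpin RNA (shRNA) and no mutagen. Transplanted WT cells carried an shRNA against Luciferase and had been moved into WT recipients, so transplantation and the control vector cannot be told apart in them. EAP cells were heterozygous for Egr1 (Egr1+/-) and for an Apc deletion (Apc del/+), carried an shRNA against Trp53, and had been moved into WT recipients. EAP with ENU cells had the same alleles and shRNA, and both donor and recipient received the alkylating mutagen N-ethyl-N-nitrosourea (ENU). In the transplanted groups, sorting took place some 2 months after the transplant and ahead of any disease. One library, EAP 1, carried a transplant label of WT marrow that goes against its genotype and shRNA labels.

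Whole marrow came from 6 mice with myelodysplastic syndrome (MDS), with Egr1+/-, Apc del/+, the Luciferase shRNA and ENU to donor and recipient. A further 6 mice had acute myeloid leukaemia (AML), with the same alleles and the Trp53 shRNA. ENU was given to donor and recipient in AML 1, 4 and 5, to the recipient alone in AML 6, and not at all in AML 2 and 3, so AML differs from MDS in the shRNA and partly in the mutagen. Stromal cells were grown from collagenase-treated compact bone of untransplanted WT mice, to passage 1 to 2. Of these, 3 libraries came from mice given 10% ethanol (mock) and 3 from mice given 100 mg/kg ENU, 1 month earlier.

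Trp53 ranged from 213 to 370 on the deposited scale in the 6 LSK libraries without its shRNA and from 65.5 to 173 in the 6 with it, and the ranges did not overlap. Egr1 ranged from 57.7 to 840.5 in EAP and EAP with ENU cells and from 133 to 212 in the WT groups, so its level did not follow the heterozygous label. Kit and Ly6a, which define the LSK gate, were present in every LSK library, at 65.3 or more and 78.0 or more. Stromal cells had Col1a1 at 361 or more and Ptprc, a blood cell marker, at 1.29 TPM (length-normalised transcript abundance) or less. Libraries WT 2, transplanted WT 3 and EAP 1 stood apart from the other 9 LSK libraries on the first principal component, which held 49.8% of the variance. AML 3 stood apart in marrow, and mock 3 and ENU 3 in stromal cells. Marrow libraries held 17341986 to 21698808 reads, recovered from the deposited values, and the depth of the others is unknown.

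The stem-loop letters are given for members that lead the results. They belong to annotated transcripts, and where the captured RNA ends was not examined. The sequences are from GENCODE transcripts on GRCm38, 5′ to 3′, with the match to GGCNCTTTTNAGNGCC (N is any base) in capitals and up to 5 flanking bases in lower case. Hist1h2ap leads the LSK level, Hist1h2bj has the smallest p among members in transplanted against untransplanted LSK cells, Hist1h1c leads the marrow, and Hist1h4d and Hist1h4i show the H4 form:
Hist1h2ap: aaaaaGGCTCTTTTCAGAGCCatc
Hist1h2bj: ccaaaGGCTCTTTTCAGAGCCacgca
Hist1h1c: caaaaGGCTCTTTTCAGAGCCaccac
Hist3h2a: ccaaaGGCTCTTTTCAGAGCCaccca
Hist1h4d: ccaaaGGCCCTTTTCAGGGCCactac
Hist1h4i: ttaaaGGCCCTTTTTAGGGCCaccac

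Of the 67 members, 41 held such a stem-loop in their transcript model and 26 did not, among them Hist1h1b, Hist1h2bc and Hist2h2be. No match says only that these letters are not in that model. Stems opening with GGCC were found in the 9 H4 genes with a stem-loop and in no other class. The model of Hist1h2ap ended 3 bases after the stem-loop and that of Hist1h2bj 23 bases after it. The model of Hist1h1c ran on for 840 bases and that of Hist3h2a for 1643. So the annotated 3′ ends ranged from short ones, which close at the stem-loop, to long ones, which run far past it, up to 4884 bases in Hist1h1d. Lengths in between were found too, such as 151 bases in Hist1h2ae and 330 in Hist1h4i.

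Members sit close together: 54 on chromosome 13 between positions 21715763 and 23934851, 10 on chromosome 3 between 96219865 and 96270132, 2 on chromosome 11 and 1 on chromosome 6 (GRCm38). Most (62 of 67) have 1 exon, and the median coding length is 390 bases. Many are near-identical copies: 32 members share over 50% of their 50-base words with another gene. Hist1h2bq shares 100% with Hist1h2br, which shares 99.8% in turn, and both had the same value in every LSK and stromal library. Hist1h2ap shares 93.1%, mostly with Hist1h2ao, and Hist1h4n shares 85.6%, mostly with Hist1h4m, so the split of reads within these pairs is uncertain. Hist1h1a, Hist1h1b and Hist2h2be share none.

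Promoters were read for the 62 members with a RefSeq entry (GRCm38.p6). The 200 bases before the RefSeq start are shown for Hist1h1b, Hist1h2bj and Hist1h4d, which belong to the linker, H2b and H4 classes. They are examples and not typical of their classes in every motif. Hist1h4d is 1 of the 3 H4 promoters of 12 with CCAAT, and Hist1h2bj lacks the octamer that 6 of 16 H2b promoters hold. Capitals mark, on either strand, the CCAAT box, the TATA box letters TATAAA, the octamer ATTTGCAT and the letters AAACACA known from H1 promoters:
Hist1h1b, chr13:21780626-21780825, minus strand: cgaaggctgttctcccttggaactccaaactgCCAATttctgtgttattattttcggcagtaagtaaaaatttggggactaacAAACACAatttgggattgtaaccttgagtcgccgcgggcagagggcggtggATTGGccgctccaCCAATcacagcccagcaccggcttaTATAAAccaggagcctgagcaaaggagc
Hist1h2bj, chr13:22042998-22043197, plus strand: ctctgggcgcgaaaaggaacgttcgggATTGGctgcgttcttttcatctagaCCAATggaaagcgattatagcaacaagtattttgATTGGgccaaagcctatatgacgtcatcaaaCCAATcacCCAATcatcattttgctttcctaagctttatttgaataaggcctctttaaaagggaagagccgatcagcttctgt
Hist1h4d, chr13:23581368-23581567, plus strand: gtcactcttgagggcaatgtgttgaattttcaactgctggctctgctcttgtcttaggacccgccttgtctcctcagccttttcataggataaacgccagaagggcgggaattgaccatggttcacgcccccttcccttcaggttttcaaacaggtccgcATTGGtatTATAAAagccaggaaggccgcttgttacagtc

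CCAAT was present in 51 of 62 member promoters (82.3%), against 29.3% of all 32851 promoters of the same length. It was present in every H1, H2a and H2b promoter, in 8 of 10 H3 promoters and in 3 of 12 H4 promoters. TATAAA was present in 41.9% of member promoters and 9.96% of all promoters. The octamer ATTTGCAT, known as the binding sequence of Oct1, was present in 7 H2a and 6 H2b promoters and in none of the other classes, which is 21% of members against 1.38% of all promoters. AAACACA was present in 5 of 6 H1 promoters, 1 H2a and 2 H2b promoters, 12.9% of members against 4.8% of all promoters. By these letters H4 promoters held CCAAT least often, and the octamer stood in H2a and H2b promoters alone. A match is a description of letters, not a binding site.

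In LSK cells the H2a class carried 70.4% to 87.0% of the summed histone level in 11 libraries and 49.9% in EAP 2, most of it from 1 gene. On the deposited scale, Hist1h2ap, an H2a gene, was at 1358, 1172 and 1199 in WT libraries 1, 2 and 3. It was at 3148, 2759 and 3159 in transplanted WT, at 3157, 440 and 3123 in EAP, and at 3312, 3084 and 3214 in EAP with ENU cells. Hist1h2ap made up 25.1% (EAP 2) to 71.3% (transplanted WT 3) of the summed level of all members. Divided by transcript length it also led, at a mean of 5035 against 483 for the next gene, its near-copy Hist1h2ao. Whether the deposited LSK values already account for length is not known, so this division may count length again. Over all genes their Spearman correlation with transcript length was -0.297, against -0.143 for the stromal TPM and -0.025 in marrow. The sum of Hist1h2ap and Hist1h2ao was 1239 to 1437 in WT, 2982 to 3566 in transplanted WT, 460 to 3525 in EAP and 3407 to 3592 in EAP with ENU cells. WT libraries and EAP 2 were low, and the other 8 were high. Fewer cells of a type and less RNA per cell cannot be told apart in bulk libraries.

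**Figure D1:**
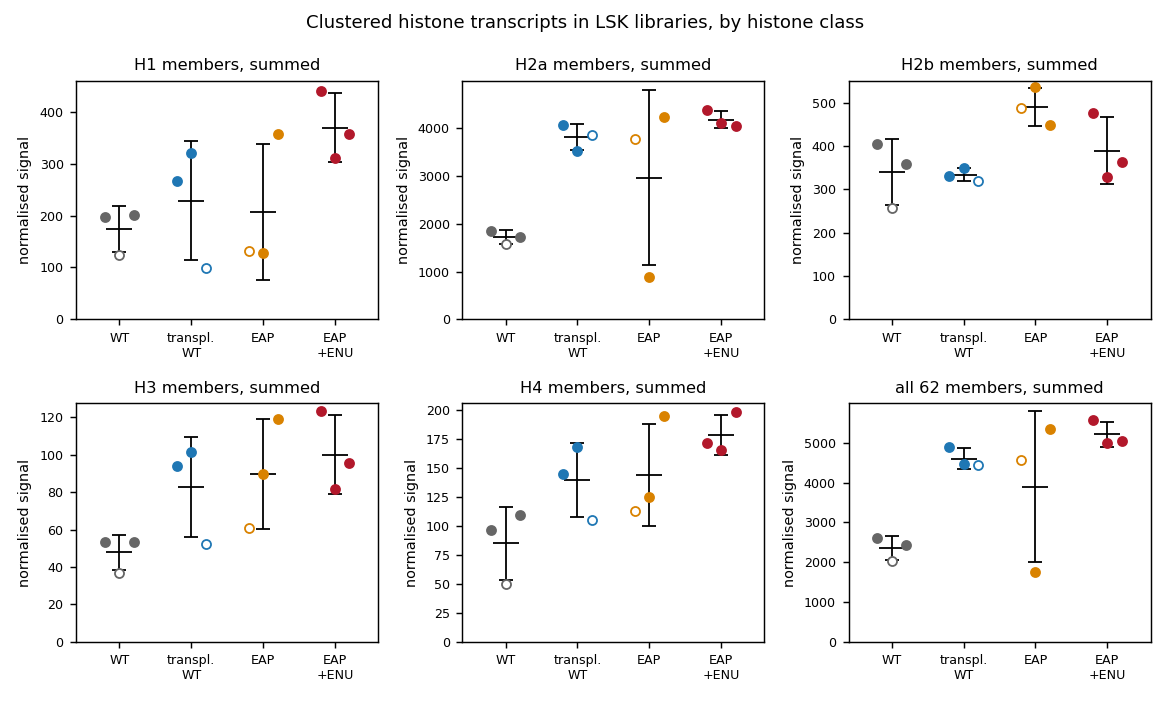
Summed deposited level of the members of each histone class, and of all classes, in the 12 LSK libraries by group. Points are libraries, open points are WT 2, transplanted WT 3 and EAP 1, and bars are the group mean ± SD (n = 3); the H2a sums of transplanted WT lie above all WT sums, while EAP 2 lies at 875.

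For the transplanted against the untransplanted WT cells, which asks what transplantation with the control vector was accompanied by, most members were higher. The summed level was 2608, 2034 and 2442 in WT and 4904, 4466 and 4432 in transplanted WT, a ratio of means of 1.95 with no overlap. As a share of the table total it was 0.180% to 0.300% in WT and 0.367% to 0.520% in transplanted WT, again with no overlap. The log2 ratio was 0.96 with all members and 0.50 without Hist1h2ap. The H2a sum was 2.23 times higher with no overlap, H3 1.73 times, H4 1.64 times and H1 1.31 times higher with overlap, and H2b was at 0.981 times.

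Single members did not pass the test. The test was limma on log2(value + 1) over 11730 genes with Benjamini-Hochberg adjustment, which called 0 members higher or lower where 0.0256% of all genes were called. At an unadjusted p under 0.05, 11 members were higher (3.15% of all genes) and 0 lower (4.13%). Higher values without overlap between the groups were found in 11 members (7.71% of all genes), and lower ones in 2 (8.42%), Hist1h2bc and Hist3h2a. A log2 difference above 0 was found in 51 of 62 members (82.3%), against 49.9% of all genes, and in 47 of 62 without the 3 libraries that stood apart. The members' median difference was 0.55, against 0.00 for all genes. Without WT 2 alone, 39 of 62 were above 0, with a median of 0.23 over all members and of 0.27 over H3 (8 of 11), 0.36 over H2a (11 of 17) and 0.00 over H1 (3 of 5). Without transplanted WT 2 alone the H1 median was 0.02, and the H3 median 0.52. With all libraries the class median was 0.90 in H3 (11 of 11 above 0), 0.59 in H2a (15 of 17), 0.43 in H1 (4 of 5), 0.22 in H4 (8 of 12) and 0.22 in H2b (13 of 17).

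The H2b gene Hist1h2bj had the smallest p. It was at 8.62, 11.9 and 4.62 in WT and at 32.4, 34.7 and 25 in transplanted WT, so that every transplanted library exceeded every WT library. The log2 difference was 1.82 ± 0.36 (SE), with an adjusted p of 0.223 by limma. The adjusted p was 0.026 with a term for the 3 libraries that stood apart and 0.0243 without them, and ranged from 0.0243 to 0.834 over all alternatives. Leaving those libraries out also put Hist1h2bm, another H2b gene, past the threshold (log2 difference 1.69, adjusted p of 0.0273 by limma); it was chosen after its values were seen. The number of genes called in the whole table was then 490 instead of 3.

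**Figure D2:**
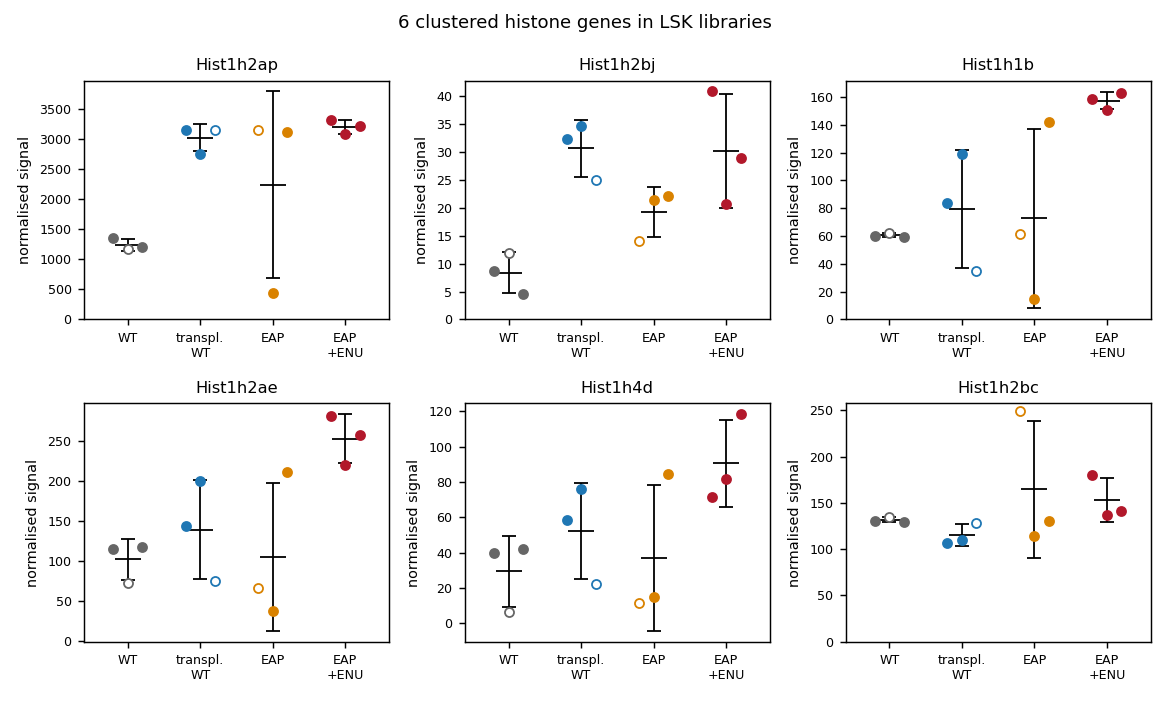
Deposited level of Hist1h2ap, Hist1h2bj, Hist1h1b, Hist1h2ae, Hist1h4d and Hist1h2bc in the 12 LSK libraries by group. Points are libraries, open points are the 3 that stood apart, and bars are the group mean ± SD (n = 3); Hist1h2bj lies at 4.62 to 11.9 in WT and at 25 to 34.7 in transplanted WT.

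Hist1h2ap itself had a log2 difference of 1.28 ± 0.62 (SE) and an adjusted p of 0.710 by limma, although its groups did not overlap. That fit shares 1 spread over the 4 groups, EAP 2 with its 440 included. In a fit of these groups alone its adjusted p was 0.466, within a range of 0.214 to 0.9992 over the alternatives. The H4 gene Hist1h4n was at 10.1, 0.013 and 2.51 in WT and at 13.4, 26.7 and 15.1 in transplanted WT (log2 difference 2.45 ± 0.71, adjusted p of 0.475 by limma). The sum of Hist1h4n and its near-copy Hist1h4m was 12.3, 7.22 and 14.6 in WT and 24.7, 28.7 and 17.8 in transplanted WT, with no overlap. The H2a gene Hist1h2ak was at 4.50, 2.31 and 2.62 in WT and at 8.97, 6.37 and 7.59 in transplanted WT (log2 difference 1.09, adjusted p of 0.544 by limma). The H2b gene Hist1h2bk was at 1.63, 0.638 and 0.548 in WT and at 1.25, 6.20 and 7.74 in transplanted WT, with overlap (1.47, adjusted p of 0.533 by limma).

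Among the highest genes of the other classes, the log2 difference was 0.214 in H1, -0.201 in H2b, 1.055 in H3 and 1.016 in H4. The adjusted p by limma ranged from 0.7096 in H3 to 0.9982 in H1. Hist1h1b, a linker histone gene, was at 60.2, 62.1 and 59.4 in WT and at 83.9, 119 and 34.7 in transplanted WT. Hist1h2bc, an H2b gene whose model has 2 exons and no stem-loop, was at 131, 135 and 130 in WT and at 107, 109 and 129 in transplanted WT. Hist2h3b, an H3 gene, was at 5.75, 29.9 and 7.64 in WT and at 21.5, 21.2 and 31.4 in transplanted WT. Hist1h4d was at 39.8, 6.27 and 42.2 in WT and at 58.3, 75.8 and 22.3 in transplanted WT. In these genes WT 2 or transplanted WT 3 set the overlap, except in Hist1h2bc, whose transplanted libraries were all slightly below WT (log2 difference -0.20, adjusted p of 0.964 by limma).

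Genes of the same pathway were listed by role and tested in the same fit. Of 35 DNA replication genes 32 were above 0 (median 0.36) and of 22 mitosis genes 21 were (median 0.57). By limma 0 of either list passed, and 3 and 6 genes were higher at an unadjusted p under 0.05. The mitotic ubiquitin-conjugating enzyme Ube2c was at 116 to 124 in WT and 253 to 257 in transplanted WT (log2 difference 1.08, adjusted p of 0.233 by limma). Of 11 replacement histone genes, which are expressed outside S phase too, 9 were above 0 and 0 passed; H2afx was at 409 to 521 in WT and 793 to 1055 in transplanted WT (0.98, adjusted p of 0.311 by limma). The 23 genes of histone mRNA transcription and processing were balanced, with 12 above 0, 0 passing and 0 at an unadjusted p under 0.05. The 19 histone chaperone genes were balanced too, with 8 above 0, 0 passing and 0 at an unadjusted p under 0.05.

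Cell type markers moved with this comparison. The summed level of 13 neutrophil markers was 2017 to 2190 in WT and 3197 to 7205 in transplanted WT, with 12 of 13 above 0, 0 passing by limma and 7 higher at an unadjusted p under 0.05. The summed level of 12 stem and progenitor markers was 2849 to 3814 in WT and 2521 to 2637 in transplanted WT, with 11 of 12 below 0 and 1, Ndn, called lower. Of 9 megakaryocyte markers 8 were above 0, and Selp was called higher. Of 10 monocyte and macrophage markers 9 were above 0, 0 passed by limma and 2 were higher at an unadjusted p under 0.05. T cell, B cell, erythroid, stromal, pan-haematopoietic and endothelial lists had medians of 0.06, -0.62, 0.23, 0.14, -0.18 and -0.27, and 0 of their genes passed by limma, with 3, 0, 2, 0, 1 and 1 at an unadjusted p under 0.05. Their part in the histone result was not tested.

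EAP against transplanted WT cells asks what the 2 heterozygous alleles and the Trp53 shRNA were accompanied by. H2b members were above 0 in 13 of 17 (median 0.29), H1 in 1 of 5 (median -0.39) and H2a in 6 of 17 (median -0.21); the difference between classes was not tested. Leaving out transplanted WT 2 put the H1 median at 0.02, and leaving out EAP 2 put the H2a median at 0.05. On the deposited scale the summed H2b level was 331, 350 and 320 in transplanted WT and 486, 536 and 448 in EAP. This was 1.47 times higher with no overlap, while the sums of the other classes overlapped. Divided by the table total, the H2b groups overlapped, as EAP 1 had the largest total of all LSK libraries. Its share fell within the transplanted WT range, while those of EAP 2 and EAP 3 lay above it. The summed level of all members was 4569, 1755 and 5355 in EAP, a log2 ratio of -0.24 with overlap. EAP 2 was below every transplanted WT library, and without it the log2 ratio was 0.11. Without Hist1h2ap it was 0.07.

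Markers of several cell types were mostly below 0 in this comparison. Of 7 B cell markers 7 were below 0, and 1 was at an unadjusted p under 0.05. Of 12 T cell markers 11 were below 0 and 9 of these were at an unadjusted p under 0.05, with summed levels of 133 to 222 in transplanted WT and 70.8 to 135 in EAP. Of 10 monocyte and macrophage markers 8 were below 0 and 4 at an unadjusted p under 0.05, with C1qa, C1qb and C1qc at -1.52, -1.65 and -2.16. Their summed levels overlapped, at 181 to 339 in transplanted WT and 123 to 695 in EAP. By limma 0 markers of these lists passed, and their part in the histone values was not tested.

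By limma 0 of 62 members passed where 0.0256% of all genes were called. At an unadjusted p under 0.05, 4 members were higher (1.65% of all genes) and 1 lower (1.96%). Values without overlap were higher in 4 (3.8% of all genes) and lower in 2 (3.18%). Both counts of 4 include Hist1h2bq and Hist1h2br, which held the same value in every library and so amount to 1 measurement. A log2 difference above 0 was found in 34 of 62 (54.8%), against 47% of all genes, with a median of 0.10. The median turned to -0.04 without transplanted WT 3 (27 of 62 above 0) and to -0.06 without EAP 3 (29 of 62). The H2a gene Hist1h2ak was at 0.990, 2.83 and 3.81 in EAP, below the 6.37 to 8.97 of transplanted WT (log2 difference -1.37, adjusted p of 0.727 by limma). The near-identical H2b copies Hist1h2bq and Hist1h2br were each at 4.40, 4.08 and 5.09 in transplanted WT and at 20.3, 14.6 and 9.63 in EAP (1.47, adjusted p of 1.0 by limma). Hist3h2a, an H2a gene with a long 3′ end, was at 53.4, 50.6 and 62.9 in transplanted WT and at 115, 80.2 and 68.9 in EAP (0.62, adjusted p of 1.0 by limma).

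Some clustered genes are known for polyadenylated transcripts, and 8 of them were listed from background knowledge. In EAP against transplanted WT 7 of these 8 were above 0 (median 0.28), and in EAP with ENU against transplanted WT all 8 (median 0.34), with 0 passing by limma in each and 1 and 0 at an unadjusted p under 0.05. The same 8 were split 4 and 4 in transplanted against untransplanted WT (median 0.03). The first 2 of these comparisons share the transplanted WT libraries. Of the DNA replication genes 10 of 35 and of the mitosis genes 14 of 22 were above 0 in EAP against transplanted WT, with 0 passing and 0 and 2 at an unadjusted p under 0.05.

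In EAP with ENU against EAP cells, which asks what the mutagen added to the same alleles, all 5 H1 genes were above 0, with a class median of 1.22. Without EAP 1, or with a term for the libraries that stood apart, 4 of 5 were above 0 (medians 1.04 and 0.84), and without EAP 2 all 5 with a median of 0.74. Hist1h1b was at 61.6, 14.7 and 142 in EAP and at 158, 151 and 163 with ENU, so that every ENU library exceeded every EAP library. Its log2 difference was 1.61 ± 0.65 (SE), with an adjusted p of 0.909 by limma. Hist1h1e, another linker gene, was at 42.6, 15.8 and 95.5 in EAP and at 99, 84.9 and 102 with ENU. Hist1h1c was at 19.7, 77.9 and 77.1 in EAP and at 130, 44.9 and 49.1 with ENU, with overlap. EAP 2 was the lowest of all 12 LSK libraries in 6 members, Hist1h1b, Hist1h1e, Hist1h2ae, Hist1h2ai, Hist1h2ao and Hist1h2ap, and the highest in 9 others, among them Hist1h2bg at 282. Such counts were not particular to EAP 2. WT 2 was the lowest in 19 members, EAP 1 and EAP 3 the highest in 9 each, and EAP with ENU 1 the highest in 13. The share of all genes was not counted.

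By limma 0 members passed where 0% of all genes were called. Before adjustment, p was under 0.05 for 6 higher members (2.98% of all genes) and 2 lower ones (2.28%). Values without overlap were higher in 5 (6.68%) and lower in 5 (5.98%). Both counts of lower members include Hist1h2bq and Hist1h2br, which held the same value in every library. The 2 lower members before adjustment were this pair, so they amount to 1 measurement. A log2 difference above 0 was found in 38 of 62 members (61.3%), against 52.9% of all genes, and in 33 of 62 without the libraries that stood apart. The median was 0.18, and 0.03 without EAP with ENU 1 (32 of 62 above 0). Hist1h2ai, an H2a gene, was at 23.0, 11.3 and 24.5 in EAP and at 48.2, 31.3 and 48.2 with ENU (log2 difference 1.13, adjusted p of 0.909 by limma). Hist1h2ak was at 6.06, 6.14 and 8.20 with ENU, above the 0.990 to 3.81 of EAP (1.22, adjusted p of 0.909 by limma). Hist1h2bq and Hist1h2br were each at 9.02, 2.06 and 4.11 with ENU, below EAP (-1.50, adjusted p of 0.909 by limma). Hist1h4d was at 11.3, 14.7 and 84.3 in EAP and at 71.2, 81.9 and 118 with ENU (1.81, adjusted p of 0.909 by limma).

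Cell type markers did not pass the test here. The neutrophil sum was 2873 to 18295 in EAP and 7191 to 10260 with ENU, with overlap, and 11 of 13 neutrophil and 9 of 10 monocyte and macrophage markers were above 0. By limma 0 of either list passed, with 3 higher in each at an unadjusted p under 0.05. The T cell sum was 66.5 to 108 with ENU, overlapping that of EAP. Their part in the histone values was not tested.

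**Figure D3:**
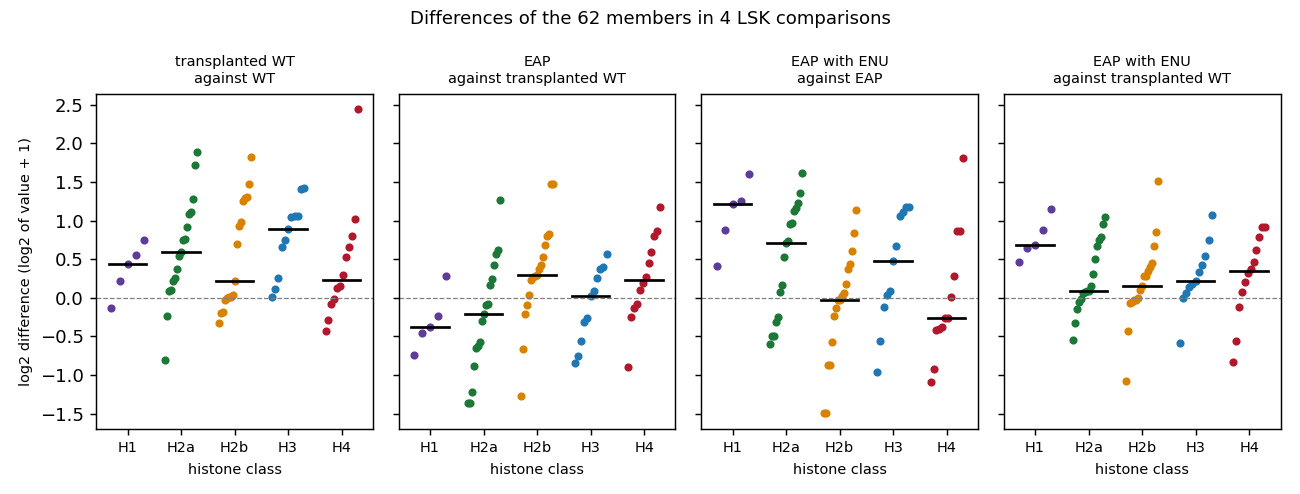
Log2 difference of each of the 62 members, by class, in the 4 LSK comparisons. Points are members and black lines are class medians; in transplanted against untransplanted WT all 11 H3 genes lie above 0, and in EAP with ENU against EAP all 5 H1 genes do.

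EAP with ENU against transplanted WT cells gave a summed level of 5580, 4994 and 5056, above the 4432 to 4904 of transplanted WT (log2 ratio 0.18). As a share of each library's table total the groups overlapped, at 0.483% to 0.565% with ENU and 0.367% to 0.520% in transplanted WT. By limma 0 members passed where 0.0171% of all genes were called. Before adjustment, p was under 0.05 for 1 higher member (1.79% of all genes) and 1 lower one (1.42%). Values without overlap were higher in 4 of 62 members (9.90% of all genes) and lower in 2 (8.61%), which is not above the shares of all genes. A log2 difference above 0 was found in 46 of 62 members (74.2%; 51.3% of all genes) but in 37 of 62 without the libraries that stood apart, where the median was 0.04 instead of 0.28. Hist1h2ai was at 13.7, 21.1 and 26.4 in transplanted WT, below its level with ENU (1.05, adjusted p of 0.9996 by limma). Hist1h2ae, an H2a gene, was at 144, 200 and 75.6 in transplanted WT and at 281, 221 and 258 with ENU (0.96, adjusted p of 0.9996 by limma). Hist1h2bm was at 13.2, 10.4 and 16.8 in transplanted WT and at 5.72, 7.26 and 4.47 with ENU (-1.08, adjusted p of 0.9996 by limma).

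Across the 4 groups, untransplanted WT had the lowest group mean in 45 of 62 members (72.6%), against 27.2% of all genes. Without the libraries that stood apart this was 42 of 62 (67.7%), against 29.3%. EAP with ENU had the highest mean in 29 members (46.8%; 23.6% of all genes) and EAP in 23 (37.1%). Without the libraries that stood apart these were 23 (37.1%; 25% of all genes) and 26. These counts are descriptions of an order, and no test of it was made. The libraries that stood apart were themselves below all 9 others in 10 members (16.1%), against 18.2% of all genes, and above all 9 in 0 members (17.8% of all genes). These 10 included 3 of 5 H1 genes and 3 of 11 H3 genes, so that EAP 1, in the lower arm of the H1 difference above, was low in those genes.

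The annotated 3′ end also described which members carried the level. Members whose model ends within 100 bases of the stem-loop made up 59.4% to 67.8% of the summed level in WT, 72.6% to 82.6% in transplanted WT, 43.5% to 77.5% in EAP and 70.5% to 75.8% in EAP with ENU cells. WT and transplanted WT did not overlap, and Hist1h2ap belongs to this group of genes. In stromal cells the same genes made up 15.2% to 21.2% of the summed TPM, and members with no stem-loop in their model 41.3% to 48.9%. Most of the latter was Hist1h2bc, which alone made up 38.2% to 44.8% of the summed TPM. In marrow, models that run more than 100 bases past the stem-loop made up 84.0% to 94.8%, most of it Hist1h1c. Of the 10 marrow members, 1 had a model ending within 100 bases of the stem-loop, 5 ran further and 4 had no stem-loop. The marrow share therefore depends on which members were listed, and Hist1h2ap was not among them. The tables were normalised separately, so these shares are set side by side and not tested against each other.

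In marrow, where AML against MDS asks how the 2 diseases differ, Hist1h1c led the level, on the deposited scale and per kilobase. Its lowest, median and highest values were 156, 208 and 349 in MDS and 18.0, 147 and 243 in AML. The groups overlapped, and AML 3 was the low end. The log2 difference was -0.98 ± 0.54 (SE), with an adjusted p of 0.238 by limma. Hist2h2be, an H2b gene with a long transcript, was at 11.5, 14.7 and 25.2 in MDS and at 3.49, 8.80 and 26.1 in AML (-0.66, adjusted p of 0.229 by limma). Hist3h2a, the H2a member of this table, was at 6.79, 13 and 21.5 in MDS and at 10.1, 14.8 and 25.8 in AML (0.30, adjusted p of 0.495 by limma).

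The other 7 members were low, with all values at 7.92 or less. Hist3h2ba, an H2b gene, was at 2.33, 4.09 and 7.92 in MDS and at 0.239, 1.81 and 3.99 in AML, with the smallest adjusted p of the members (0.115 by limma, 0.151 by edgeR). Hist1h1b was at 2.33, 3.0 and 3.62 in MDS and at 0.239, 1.86 and 2.85 in AML; these 2 genes were named after their values were seen. Counting error is small for Hist1h1c, which had 376 to 6532 reads per library, and large for the lowest members, such as Hist2h2bb with 2 reads in AML 6.

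Both limma and edgeR's quasi-likelihood test on recovered reads called 0 of 10 members, where limma called 3.20% of all genes and edgeR 448 of 11273. The limma call count over all genes turned on single libraries: it was 0 without MDS 1, 2, 3, 5 or 6 or AML 5 or 6, 1 without MDS 4, 644 without AML 2 and 2472 without AML 1. At an unadjusted p under 0.05, limma had 0 higher (15.4% of all genes) and 2 lower (13.9%), and edgeR 0 higher and 1 lower (3541 of 11273 genes in either direction). Values without overlap were found in 0 members in either direction (1.71% and 2.13% of all genes). A log2 difference above 0 was found in 1 of 10 members, against 52.7% of all genes, and the members' median was -0.40. All 5 H1 genes and all 4 H2b genes were below 0.

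**Figure D4:**
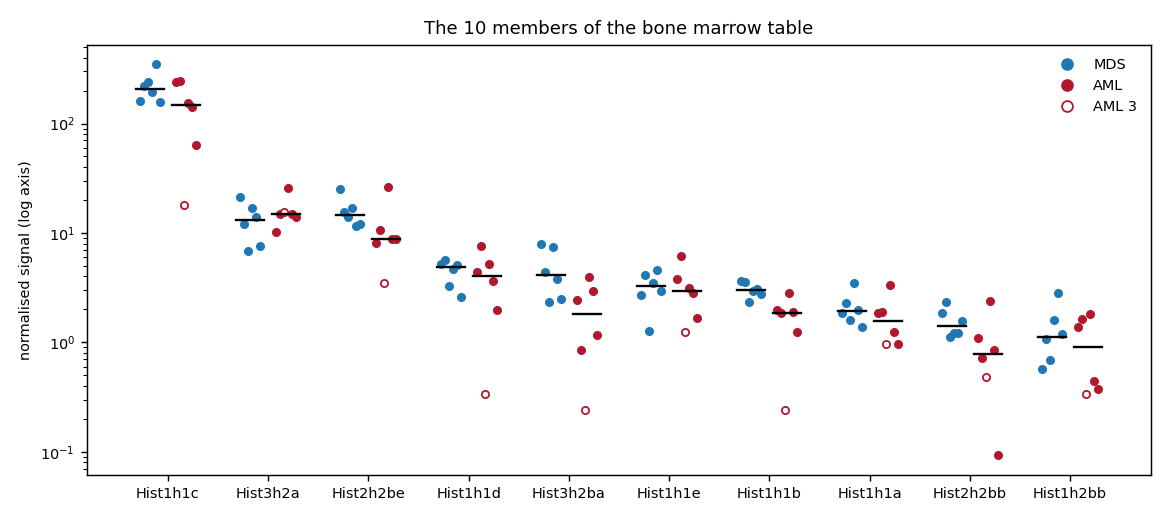
Deposited level of the 10 clustered histone genes of the marrow table in 6 MDS (blue) and 6 AML (red) libraries, on a log axis. Points are libraries, the open point is AML 3, and lines are group medians; Hist1h1c lies above the other members, and the groups overlap in every member.

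AML 3 was low for several members, with a summed histone level of 40.7 against 190 to 397 in MDS. This library had a Ptprc level of 15.3, against 753 to 1219 in MDS. Marker lists moved with the comparison: the erythroid sum was 7518 to 25903 in MDS and 372 to 5835 in AML, and the neutrophil sum 63147 to 104390 in MDS and 478 to 124860 in AML. T cell sums were 2514, 4446 and 926 in AML 4, 5 and 6 and 53.3 to 127 in MDS. The B cell sum was 2684 in AML 3, against 117 to 197 in MDS and 58.8 to 120 in the other AML libraries. Their part in the histone values was not tested. Among the 3 AML mice given ENU like the MDS mice, limma and edgeR each called 0 members (limma called 0% of all genes, but 4220 of 11275 without AML 1, and edgeR called 23). In this comparison 0 members reached an unadjusted p under 0.05 with either tool (14.1% of all genes higher and 12.8% lower with limma). Values without overlap were found in 0 members (5.13% of all genes higher and 4.43% lower). There 4 of 10 members were above 0 (51.6% of all genes), and Hist1h1c differed by -0.29 (adjusted p of 0.497 by limma).

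Pathway genes in marrow did not all move with the histone genes. Mitosis genes were below 0 in 21 of 22, with a median of -0.56; 9 were lower at an unadjusted p under 0.05. The cytokinesis gene Prc1 passed, with a log2 difference of -1.19 and an adjusted p of 0.0336 by limma; without MDS 1, 2, 3, 5 or 6 or AML 5 or 6 no gene of the table passed. With the 3 AML mice given ENU to donor and recipient, Prc1 differed by -1.06 (adjusted p of 0.108 by limma). DNA replication genes were above 0 in 19 of 35, and 0 passed, with 1 higher and 5 lower at an unadjusted p under 0.05. Histone mRNA transcription and processing genes were above 0 in 18 of 23 and chaperones in 15 of 19, and 0 of either passed. At an unadjusted p under 0.05, 2 processing genes were higher and 2 lower, and 1 chaperone gene each way. Replacement histone genes were above 0 in 3 of 9, with 0 passing and 2 lower at an unadjusted p under 0.05.

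In stromal cells, where ENU against mock asks what earlier mutagen exposure of the animal left in its marrow stroma, 28 of the 67 members reached 1 TPM in some library, 5 were at 0 throughout and 13 passed the filter on low values. These 13 are not all members. Hist1h2bc, the highest, was at 115, 102 and 82.6 TPM in mock and at 106, 103 and 148 TPM with ENU (log2 difference 0.24, adjusted p of 0.9998 by limma). Hist1h1c was at 57.4, 47.4 and 57.3 TPM in mock and at 56.2, 46.7 and 89.7 TPM with ENU (0.20, adjusted p of 0.9998 by limma). Hist2h2aa1, an H2a gene, was at 32.1, 30.7 and 25.9 TPM in mock and at 16.6, 22.9 and 46.6 TPM with ENU. In all 3 genes ENU 3 was the highest library and the groups overlapped.

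Hist3h2a was at 13.9, 18.6 and 13 TPM in mock and at 18.3, 16.1 and 22.3 TPM with ENU (0.30, adjusted p of 0.9998 by limma). Hist1h4i, the highest H4 gene, was at 11.7, 7.80 and 2.22 TPM in mock and at 10.7, 13.2 and 6.43 TPM with ENU (0.59, adjusted p of 0.9998 by limma). Hist2h3c2, the highest H3 gene, was at 4.12, 2.59 and 2.45 TPM in mock and at 2.97, 2.53 and 5.82 TPM with ENU. The 5 leading members, Hist1h2bc, Hist1h1c, Hist2h2aa1, Hist3h2a and Hist1h4i, made up 83.8% to 88.5% of the summed level. Hist1h2ap, the leading gene in LSK cells, was at 0.527, 0.831 and 0.505 TPM in mock and was listed at 0 in the 3 ENU libraries. It stayed under 1 TPM and so did not pass the filter, and with the filter dropped its adjusted p was 0.579 by limma. As it shares 93.1% of its 50-base words with other genes, the reads assigned to it are uncertain.

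By limma 0 members passed where 0% of 12089 genes were called. At an unadjusted p under 0.05, 0 members were higher (0.976% of all genes) and 1 lower (1.60%), and the same gene, Hist1h4n, was the 1 member lower without overlap (4.27% of all genes; 0 higher, 2.80%). Hist1h4n was at 1.80, 1.24 and 1.36 TPM in mock and at 0, 0 and 0.292 TPM with ENU. Its near-copy Hist1h4m was listed at 0 in the 3 mock libraries and was at 1.32, 0.844 and 2.48 TPM with ENU. The sum of both was 1.80, 1.24 and 1.36 TPM in mock and 1.32, 0.844 and 2.77 TPM with ENU, so that the groups overlapped once the copies were added. Both copies were named after their values were seen.

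**Figure D5:**
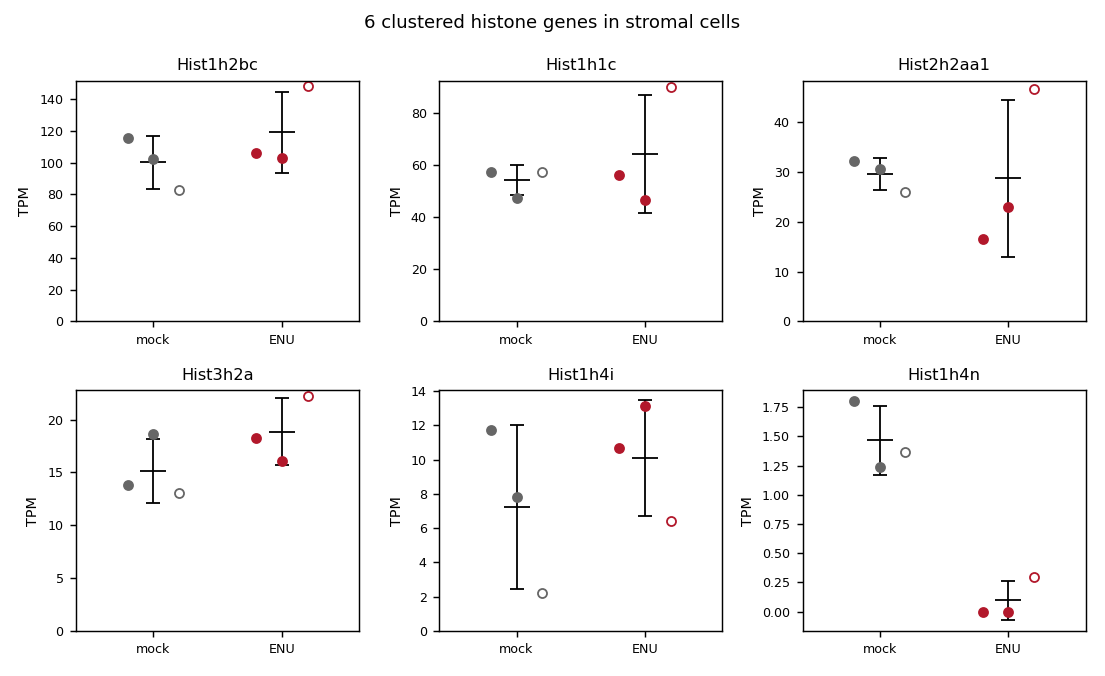
TPM of Hist1h2bc, Hist1h1c, Hist2h2aa1, Hist3h2a, Hist1h4i and Hist1h4n in 3 mock and 3 ENU stromal libraries. Points are libraries, open points are mock 3 and ENU 3, and bars are the mean ± SD (n = 3); the groups overlap in all but Hist1h4n, whose 3 ENU libraries lie at 0.292 TPM or less.

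A log2 difference above 0 was found in 10 of the 13 tested members (76.9%), against 48.7% of all genes, and in 6 of 13 without mock 3 and ENU 3, 7 of 13 without ENU 3 alone and 9 of 15 without mock 3 alone. The median was 0.24, and -0.02, 0.07 and 0.09 in these. These libraries had DNA replication sums of 786 and 1069 TPM against 1570 to 2049 in the other 4, and mitosis sums of 271 and 495 against 1145 to 1584. The summed histone level was 263, 234 and 216 TPM in mock and 246, 230 and 370 TPM with ENU, so ENU 3 was the highest for the histone genes and among the low ones for the replication and mitosis genes. The log2 ratio of the sums was 0.25, and -0.06 without mock 3 and ENU 3. Above 0 were 32 of 35 DNA replication genes, 22 of 22 mitosis genes, 15 of 22 histone mRNA transcription and processing genes, 17 of 19 chaperones and 7 of 11 replacement histone genes. By limma 0 of each list passed and 0 reached an unadjusted p under 0.05. That fit leaves out that same-numbered stromal libraries deviated together. With a block for the replicate number, 1213 of 12089 genes reached an unadjusted p under 0.05, against 312 without it, and 0 passed. Among members these were 0 higher and 1 lower in both fits, and the lists were not counted with the block.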

How the data were processed

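The LSK and marrow values are a signal normalised by the authors as deposited. They were deposited under names that say CPM, but column totals range from 803746 to 1437201. The stromal values are TPM as deposited. Per the labels' protocols, RNA was extracted with TRIzol and libraries with the TruSeq stranded mRNA kit. The tools bcl2fastq, FastQC, TopHat, SAMtools and edgeR and the build mm10 are named per the submitters' processing notes. Which program and annotation gave the counts is not given here. The design had assumed CPM for the first 2 tables, and the test was kept.

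Alias names in the marrow table were merged (155 names, leaving 11275 genes). Columns of unmapped samples numbered 0. Marrow values were whole multiples of 1 read within 0.05 for 99.99% to 100% of values.

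Genes were kept if at least as many libraries as the smaller group holds reached a value of 1, and were tested with limma 3.58.1 (R 4.3.3; trend) on log2(value + 1) over the whole table, with Benjamini-Hochberg adjustment at 0.05. The 4 LSK groups shared 1 fit. A fold change on the log2(value + 1) scale understates that of low genes. edgeR 4.0.16 was run on the recovered marrow reads. Sums over members are descriptions with no test. The test was checked on simulated data with a reduced spread and independent noise. That check leaves out the libraries that stood apart, so it does not show how the test behaves on these data. Mouse tags are given for marrow; elsewhere p-values measure only the spread between these samples, which may be technical.

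The members, gene lists and tests were chosen with earlier results of these data known. Named members were those past the threshold or, with fewer than 3, the 4 with the smallest unadjusted p where the higher group's mean was 5 or more, and the class member with the highest mean; up to 3 genes with the smallest p could be named per list.

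Same-numbered stromal libraries deviated together (correlations of 0.47, 0.66 and 0.70), so their numbers pair them, from the data and not from a label; LSK and marrow numbers did not pair. The alternatives tried were median-of-ratios rescaling, a replicate block, leaving each replicate out, fitting the compared groups alone, a pseudocount of 0.1, dropping the filter, edgeR, and sums without the highest member. Fits with a term for or without the 3 LSK libraries that stood apart, and without mock 3 and ENU 3, were chosen after seeing the data. Python 3.11.15, pandas 2.3.3, SciPy 1.17.1 and matplotlib 3.10.9 were used.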

Additional observations from a re-analysis of the deposited data

Results flagged for a closer look

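In the AML group of 6 libraries, AML 4 lay far above the others in 2 members. Hist2h2be was at 26.1 in AML 4, and the next highest AML library was at 10.6. Hist3h2a was at 25.8 in AML 4, and the next highest AML library was at 15.4. Both gaps, divided by the range of the group, exceeded Dixon's 95% critical value for 6 samples (0.625). Chance alone gives such a gap in about 1 in 20 groups, and 22 groups were examined.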

How the results depend on the processing

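For transplanted against untransplanted WT, the members called rose from 0 to 1 with a term for the libraries that stood apart and to 2 without them, and the genes called in the whole table from 3 to 275 and 490. The other members-called counts were 0 under every alternative run, the replicate block included, where 0 members were called in each comparison; the block changed no call. Without the highest member the log2 ratio of the sums was 0.497 for transplanted against untransplanted WT and 0.346 for EAP with ENU against transplanted WT. In EAP against transplanted WT it turned from -0.241 to 0.067, in AML against MDS it went from -0.548 to -0.264 and in the AML mice with ENU to both from -0.247 to -0.006. For ENU against mock it turned from 0.246 to -0.064 without mock 3 and ENU 3.

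Directions also reversed for 6 values of single members, none past the threshold, and the cause was not tested. Hist1h2ap in EAP against transplanted WT was 0.058 without EAP 2 (range over left-out replicates -1.36 to 0.058). Hist3h2a in the AML mice with ENU to both was -0.116 with the replicate block. Hist2h2be there was 0.004 without AML 1 (range -0.785 to 0.004). Without mock 3 and ENU 3, Hist1h2bc was -0.056 and Hist1h1c -0.024, and Hist1h1c was -0.069 without ENU 3 (range -0.069 to 0.394). A further 389 values of named members kept their direction and side of the threshold, and Hist1h2bj passed under 2 settings; Hist1h2bm passed too without the libraries that stood apart.

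With each replicate left out in turn, the log2 ratio of the sums ranged from 0.865 to 1.04 (transplanted against untransplanted WT), -0.541 to 0.109 (EAP against transplanted WT, above 0 without EAP 2), 0.07 to 0.72 (EAP with ENU against EAP), 0.127 to 0.228 (EAP with ENU against transplanted WT), -0.723 to -0.339 (AML against MDS), -0.404 to -0.101 (AML with ENU to both) and 0.0 to 0.373 (ENU against mock). In AML against MDS the genes called in the whole table were 361, but 145 with a pseudocount of 0.1, 141 with the block and 0 to 2472 with each replicate left out. In the AML mice with ENU to both they were 0, but 23 by edgeR and 0 to 4220 with each replicate left out.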

Other observations

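Slbp, whose protein binds the histone stem-loop, was at 1052, 888 and 1080 in WT 2, transplanted WT 3 and EAP 1, the LSK libraries that stood apart, and at 376 to 561 in the other 9. Slbp is not alone in this, as 17.8% of all genes were above all 9 others in these libraries. Of 62 members, WT 2 was the lowest of the 12 libraries in 19, and 13 were listed at 0 there. The share of all genes that were lowest in WT 2 was not counted. No test was made on this split, which was noticed in the data.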
